A study of Rattus norvegicus with 11 samples.

Results

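The genes of DNA strand synthesis described here are the 10 members Pola1, Pola2, Prim1, Prim2, Pold1, Pold2, Fen1, Pcna, Lig1 and Chtf18. They were chosen by gene symbol with earlier results of these data known, so shares of all probe sets beside their counts are a description. Each is the single symbol of 1 probe set in the platform annotation, so 10 of the 15866 non-control probe sets are counted as theirs. Probe sets with several symbols or none were not searched for them. The RNA was from the rat embryo fibroblast line REF52. Cells grown in 10% fetal bovine serum spent 48 hours in 0.25% serum, after which an adenovirus expressing E2F1 or a control adenovirus (CMV) was added. After infection they were kept in deprivation medium, given serum, or given serum with LY294002, an inhibitor of phosphoinositide 3-kinase (PI3K). The E2F1 virus was measured on 2 arrays in each medium. The control virus was measured on 2 arrays in serum, 2 in serum with LY294002 and 1 in deprivation medium. All groups thus share the earlier deprivation and an adenovirus infection, and uninfected cells were not analysed here. The labels do not give the time after infection, the virus dose or the origin of a group's arrays, whether separate cultures or one, so the p-values rest on array-to-array spread that may be technical.

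E2F1 is a transcription factor that binds the promoters of genes needed for S phase, and genes of the replication machinery are among its best known targets. At the replication fork, DNA polymerase alpha and its tightly bound primase lay down short RNA-DNA primers. DNA polymerase delta, held on the template by the sliding clamp PCNA, extends them into Okazaki fragments on the lagging strand. The flap nuclease FEN1 removes the primer end that is displaced, and DNA ligase 1 seals the nick. Resting fibroblasts hold little of this machinery and rebuild it when they re-enter the cell cycle.

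Precision is limited by having 11 arrays. The authors' signals have a trimmed mean of 500 on each array, and array medians ran from 172 to 207. Fibroblast genes were bright on all arrays, with signals of at least 5080 for Col1a1, 11700 for Fn1 and 12200 for Vim. The fibroblast markers Dcn, Lum, Thy1 and Pdgfra stayed at or below 202. The defining markers Ptprc (leukocytes), Pecam1 (endothelium) and Epcam (epithelium) were at most 51.9, 32.6 and 63.5. Some other markers of these lists were brighter, with maxima of 574 for Krt8 (epithelium), 326 for Cd14 (leukocytes) and 83.8 for Vwf (endothelium). Among neural and muscle markers Syp reached 423 and Ckm 225. The 3' minus 5' difference of the GAPDH and beta-actin control probe sets, a sign of RNA quality, was 0.510 and 0.556 on the log2 scale on the deprived E2F1 arrays and 0.760 on the deprived control array. It was 0.899 on the second E2F1 array with LY294002 and 0.122 to 0.331 on the other 7 arrays. Summed signals of marker lists of other cell types overlapped between E2F1 and control arrays (for the 4 measured of 5 endothelial markers 130 to 190.8 against 60.57 to 135.1, for 5 of 6 leukocyte markers 239.5 to 419.7 against 298.5 to 368.9, for all 4 epithelial markers 155.3 to 429.4 against 211 to 633.4). The endothelial range lay higher with E2F1, with its defining marker Pecam1 at or below 32.6 in both, and its part in the results was not tested. In bulk RNA, fewer cells of a type and less RNA per cell cannot be told apart. E2f1 is the single symbol of 0 probe sets. That count leaves out probe sets with several symbols or none, so no level of the virus-borne gene is given here.

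Averaged over the 3 media, 9 of the 10 genes rose with E2F1 and 0 fell, against 9.23% of all probe sets called higher and 7.25% called lower. The 10 genes were chosen with earlier results of these data known, so these shares are a description and no test. The call rule is limma with a Benjamini-Hochberg adjusted p under 0.05 over all 15866 probe sets, on log2(signal + 16). The median log2 change of the 10 genes was 1.59, against -0.04 over all probe sets. For 8 of the 10, all 6 E2F1 arrays lay above all 5 control arrays, which holds for 6.05% of all probe sets. Fen1 had the largest change among the genes whose signals all lay well above the offset. Those of Prim2 and Pola2 were 2.46 and 2.42, but part of their control signals lay at the offset, and with an offset of 64 they were 1.64 and 1.77, below Fen1 at 2.05 and Pcna at 1.81. Pold1 was the gene that did not pass (log2 change 0.57 ± 0.17, SE, adjusted p = 0.0630). Prim1 passed with an adjusted p of 0.0405, a call that was lost under 8 of 21 alternative settings, and the other 8 calls held under every setting tried.

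**Figure D1:**
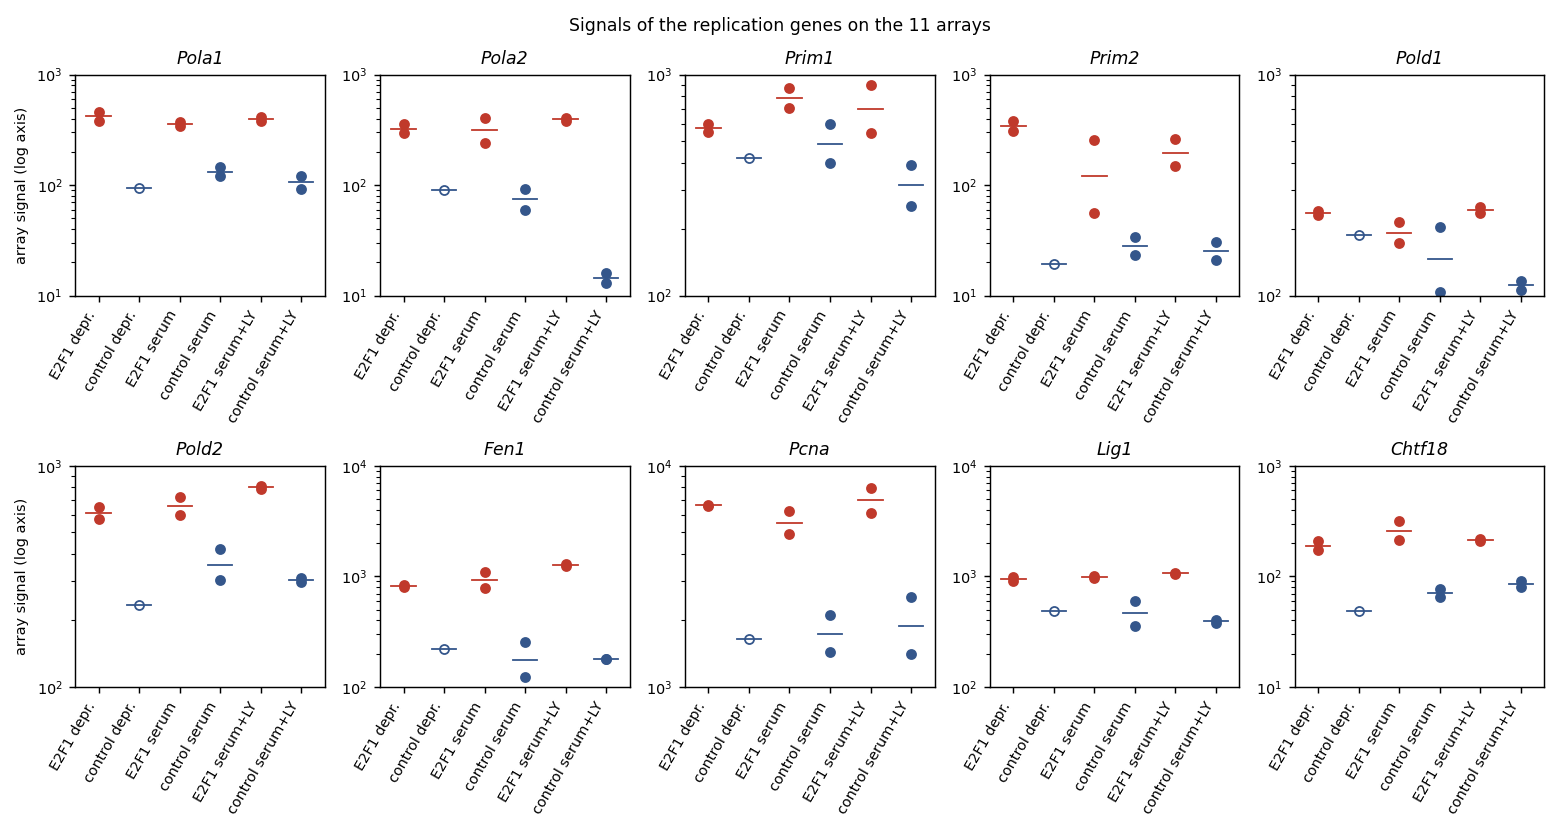
Array signals (log axis) of the 10 genes in the 6 groups, a panel for each gene with its own axis range. Points are arrays, red for E2F1 and blue for control virus, open for the single deprived control array, and lines are geometric means. In 8 panels every red point lies above every blue one, and in the panels of Prim1 and Pold1 red and blue points overlap.

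The letters of the upstream regions are shown because 9 of the 10 genes rose with a factor that binds DNA. RefSeq windows on build GRCr8 from 250 bases before to 50 bases after the start of each gene were searched on both strands for 7 E2F-type octamers. These were TTTCCCGC, TTTGGCGC, TTTCGCGC, TTTGCCGC, TTCCCGCC, TTGGCGGG and TTCGCGCC, which can overlap one another. At least 1 match was present in the windows of 6 of the 10 genes (Pola1, Pola2, Prim1, Pold2, Fen1 and Lig1), against 4.59% of all 33465 distinct windows and 10.3% of the 8775 windows with a GC content of at least 60%. GC content was 45.7% to 69.3% in the 10 windows, and its median over all windows was 51.7%. A match is a description of letters, not a binding site, and a window without one says nothing on E2F1. The windows of 3 genes with matches and large or moderate changes (Pola2, Fen1, Lig1), of Prim1, which has a match and a small change, and of Prim2, which has a large change and no match, read as follows, with matches in capitals and position 1 as the start base.
Pola2: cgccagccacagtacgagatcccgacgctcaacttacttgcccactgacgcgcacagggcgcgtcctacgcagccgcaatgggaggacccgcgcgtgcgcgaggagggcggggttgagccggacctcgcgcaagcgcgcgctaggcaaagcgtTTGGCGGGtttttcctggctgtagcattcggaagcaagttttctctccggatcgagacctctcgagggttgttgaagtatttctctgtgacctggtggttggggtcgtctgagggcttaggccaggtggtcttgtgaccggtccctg
Fen1: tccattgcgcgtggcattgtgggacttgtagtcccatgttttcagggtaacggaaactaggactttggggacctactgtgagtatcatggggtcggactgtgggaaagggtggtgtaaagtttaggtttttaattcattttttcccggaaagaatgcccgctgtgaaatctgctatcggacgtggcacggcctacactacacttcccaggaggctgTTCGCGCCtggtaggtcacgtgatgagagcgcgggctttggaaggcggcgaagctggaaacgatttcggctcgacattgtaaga
Lig1: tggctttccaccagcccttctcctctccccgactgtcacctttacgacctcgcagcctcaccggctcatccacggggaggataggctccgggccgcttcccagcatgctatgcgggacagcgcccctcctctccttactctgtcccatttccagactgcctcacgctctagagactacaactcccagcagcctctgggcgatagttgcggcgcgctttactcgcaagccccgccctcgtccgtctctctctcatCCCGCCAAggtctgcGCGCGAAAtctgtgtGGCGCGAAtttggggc
Prim1: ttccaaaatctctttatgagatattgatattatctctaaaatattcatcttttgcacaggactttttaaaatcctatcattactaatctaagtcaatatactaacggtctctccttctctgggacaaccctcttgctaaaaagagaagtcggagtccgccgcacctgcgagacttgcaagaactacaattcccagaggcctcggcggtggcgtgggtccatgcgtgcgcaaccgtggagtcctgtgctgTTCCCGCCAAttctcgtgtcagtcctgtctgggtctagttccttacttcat
Prim2: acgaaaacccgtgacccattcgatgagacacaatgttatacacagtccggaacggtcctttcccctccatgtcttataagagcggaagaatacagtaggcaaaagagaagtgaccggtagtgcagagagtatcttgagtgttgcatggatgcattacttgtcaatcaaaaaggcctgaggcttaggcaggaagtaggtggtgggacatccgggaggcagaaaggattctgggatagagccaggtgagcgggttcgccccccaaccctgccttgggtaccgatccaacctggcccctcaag

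These windows lie at chr1:212680493-212680792 (Pola2, minus strand), chr1:216274347-216274646 (Fen1, minus strand), chr1:83242920-83243219 (Lig1, plus strand), chr7:1031212-1031511 (Prim1, plus strand) and chr9:43400405-43400704 (Prim2, minus strand). In Pola2 the match TTGGCGGG covers positions -97 to -90. In Fen1 TTCGCGCC covers -34 to -27. Lig1 has 3 separate matches, all downstream of the start, at 5 to 12, 20 to 27 and 35 to 42. In Prim1 matches to TTCCCGCC and TTGGCGGG overlap across the start, from -1 to 9. Pola1 has 1 match at -172 to -165 and Pold2 has 1 at -4 to 4. The average log2 changes of the 6 genes with a match ran from 0.74 (Prim1) to 2.42 (Pola2), and those of the 4 without (Prim2, Pold1, Pcna, Chtf18) from 0.57 (Pold1) to 2.46 (Prim2), so the ranges overlap almost entirely.

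The polymerase alpha and primase genes make up the enzyme that starts every strand. Pola1, the catalytic subunit of polymerase alpha (probe set 1376611_at), had signals of 458 and 382 in deprived E2F1 cells, 373 and 339 in E2F1 cells in serum, and 379.5 and 410.1 in E2F1 cells with LY294002. In control cells it had 93.9 in deprivation, 119.6 and 146 in serum, and 121 and 92.2 with LY294002. The lowest E2F1 array was thus far above the highest control array, and Pola1 rose 3.22-fold (1.69 ± 0.12, adjusted p = 0.000479). The log2 change was 1.38 with an offset of 64 and 1.82 with one of 1.

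Pola2, the accessory B subunit of polymerase alpha (1387795_at), had 297 and 354 in deprived E2F1 cells, 408 and 240.1 in E2F1 cells in serum, and 406 and 382 in E2F1 cells with LY294002. Control cells had 91.1 in deprivation, 59.9 and 92.4 in serum, and 16.1 and 13.1 with LY294002. The 2 control arrays with LY294002 stand below all others, at the level of the offset of 16. Pola2 rose with E2F1 (log2 change 2.42 ± 0.17, adjusted p = 0.000479), and no fold is given where a compared array lies under a signal of 48, since the offset then sets part of the size.

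Prim1, the catalytic primase subunit that makes the RNA primer (1388182_at), had 596 and 549 in deprived E2F1 cells, 865 and 705 in E2F1 cells in serum, and 894 and 544 in E2F1 cells with LY294002. Control cells had 418 in deprivation, 396 and 598 in serum, and 391 and 254 with LY294002. The higher control array in serum lay above 3 of the 6 E2F1 arrays. The change was 1.67-fold (0.74 ± 0.20, adjusted p = 0.0405). Prim2, the large primase subunit, which contacts polymerase alpha and carries an iron-sulfur cluster (1388911_at), had 376 and 308 in deprived E2F1 cells, 257 and 56.1 in E2F1 cells in serum, and 149 and 259.8 in E2F1 cells with LY294002. Control cells had 19.3 in deprivation, 23.2 and 33.7 in serum, and 30.5 and 20.9 with LY294002. Prim2 was close to the offset in all 5 control arrays and rose with E2F1 (2.46 ± 0.35, adjusted p = 0.00381). The E2F1 arrays in serum differed by 1.92 on the log2 scale for Prim2, more than for any other gene of the 10 in any pair of arrays.

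Of the polymerase delta genes Pold2 rose and Pold1 did not pass. Pold1, its catalytic and proofreading subunit (1370127_at), had 242 and 232 in deprived E2F1 cells, 216 and 172 in E2F1 cells in serum, and 252 and 237 in E2F1 cells with LY294002. Control cells had 188 in deprivation, 103.6 and 205 in serum, and 116 and 106 with LY294002. The second control array in serum was higher than 1 of the 2 E2F1 arrays in that medium, so the groups overlap. Pold2, the subunit that links the catalytic subunit to the rest of polymerase delta (1373935_at), had 653 and 573 in deprived E2F1 cells, 719.7 and 601 in E2F1 cells in serum, and 787 and 811 in E2F1 cells with LY294002. Control cells had 235 in deprivation, 303 and 419 in serum, and 299.7 and 312 with LY294002. All E2F1 arrays lay above all control arrays, and Pold2 rose 2.25-fold (1.17 ± 0.12, adjusted p = 0.00144).

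The clamp gene Pcna and the clamp loader gene Chtf18 rose. Pcna, the sliding clamp (1367671_at), had 6607 and 6656 in deprived E2F1 cells, 6258 and 4897 in E2F1 cells in serum, and 6121 and 7939 in E2F1 cells with LY294002. Control cells had 1650.0 in deprivation, 1435 and 2119 in serum, and 1414 and 2540 with LY294002. The control arrays with LY294002 differed from each other by 0.838 on the log2 scale, yet both stayed below every E2F1 array. Pcna rose 3.58-fold (1.84 ± 0.20, adjusted p = 0.00153). Chtf18, the large subunit of the CTF18 clamp loader, which puts PCNA on DNA at forks (1390640_at), had 207 and 172 in deprived E2F1 cells, 315 and 212 in E2F1 cells in serum, and 217 and 210.0 in E2F1 cells with LY294002. Control cells had 49.0 in deprivation, 64.9 and 77.6 in serum, and 80.4 and 90.1 with LY294002. It rose 2.83-fold (1.50 ± 0.14, adjusted p = 0.000908), with no overlap between E2F1 and control arrays. The size depends on the offset here too, with 1.11 at an offset of 64 and 1.70 at 1.

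Of the enzymes that finish Okazaki fragments, Fen1, the flap nuclease (1367983_at), had 839.9 and 806 in deprived E2F1 cells, 1104 and 779 in E2F1 cells in serum, and 1305 and 1235 in E2F1 cells with LY294002. Control cells had 219 in deprivation, 122 and 254 in serum, and 178 and 177 with LY294002. All E2F1 arrays lay far above all control arrays, and Fen1 rose 4.87-fold (2.29 ± 0.19, adjusted p = 0.000843). Lig1, the ligase that joins the fragments (1368204_at), had 991 and 914 in deprived E2F1 cells, 1006 and 962 in E2F1 cells in serum, and 1077 and 1054 in E2F1 cells with LY294002. Control cells had 490.4 in deprivation, 359 and 604 in serum, and 404 and 381 with LY294002. The 6 E2F1 arrays were close together and above every control array, and Lig1 rose 2.19-fold (1.13 ± 0.15, adjusted p = 0.00298).

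**Figure D2:**
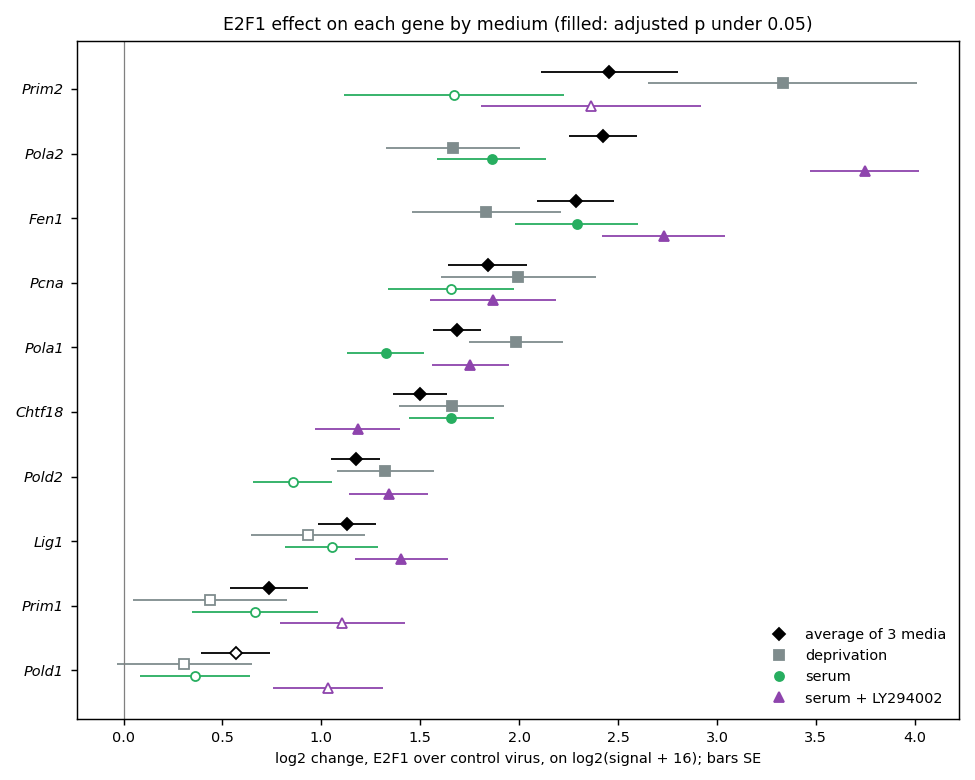
Log2 change of each gene, E2F1 over control virus, on log2(signal + 16), averaged over the 3 media and within each medium, with SE bars. Filled symbols passed an adjusted p of 0.05 and open ones did not. All symbols lie above 0, from 0.31 (Pold1 in deprivation) to 3.75 (Pola2 with LY294002).

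Partner genes were also compared within each array, as the log2 difference between a pair. The 4 pairs were picked after their values had been seen, so the values are a description with no test. Fen1 minus Lig1 was -0.30 to 0.27 on E2F1 arrays and -1.44 to -1.04 on control arrays, which do not overlap, and averaged over media the change of Fen1 exceeded that of Lig1 by 1.15. Pold2 minus Pold1 was 1.24 to 1.71 on E2F1 arrays and 0.29 to 1.42 on control arrays, which overlap, and the excess of Pold2 was 0.61. It was 0.40 without the deprived control array. Prim2 minus Prim1 was -3.32 to -0.64 on E2F1 arrays and -3.63 to -2.87 on control arrays, which overlap. The excess of Prim2 was 1.72, and it was 0.97 with an offset of 64, since its control signals lie close to the offset, and 1.13 without the deprived control array. Pola2 minus Pola1 was -0.60 to 0.12 on E2F1 arrays and -2.10 to -0.04 on control arrays, which overlap, with an excess of 0.74 that was 0.39 with an offset of 64 and 1.27 without the deprived control array.

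In serum alone, Fen1 rose 4.89-fold (2.29 ± 0.31, adjusted p = 0.0436), Pola2 3.63-fold (1.86 ± 0.28, adjusted p = 0.0465), Chtf18 3.15-fold (1.66 ± 0.22, adjusted p = 0.0402) and Pola1 2.51-fold (1.33 ± 0.19, adjusted p = 0.0465), on 2 arrays against 2. These 4 of 10 calls, with 0 fallen, stand against 0.29% of all probe sets called higher and 0.063% called lower in serum. With an offset of 64 the log2 changes in serum were 1.445 for Pola2, 1.26 for Chtf18 and 1.095 for Pola1. Pcna (1.66 ± 0.32, adjusted p = 0.0813), Lig1 (1.05 ± 0.24, adjusted p = 0.105), Pold2 (0.86 ± 0.20, adjusted p = 0.109) and Prim2 (1.67 ± 0.56, adjusted p = 0.217) did not pass, nor did Prim1 (0.66 ± 0.32, adjusted p = 0.366) and Pold1 (0.36 ± 0.28, adjusted p = 0.584). For 9 of the 10 both E2F1 arrays lay above both control arrays, as did 31.5% of all probe sets. The 4 calls depend on single arrays, as does the number of calls over all probe sets in serum. Leaving out the second control array in serum left 2 of the 10 genes called, and leaving out any 1 of the 9 arrays other than that and the deprived control array left 0. When limma was run on just the 2 serum groups, 0 passed. Without the first control array in serum the change of Pold1 was -0.08 in place of 0.36, that of Lig1 was 0.69 in place of 1.05 and that of Prim1 was 0.38 in place of 0.66. The change of Prim2 was 0.71 without the first E2F1 array in serum and 2.63 without the second.

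With LY294002, 7 of the 10 genes rose with E2F1 and 0 fell, against 3.78% of all probe sets called higher and 1.63% called lower. They are Pola2 (3.75 ± 0.28, adjusted p = 0.00306), Fen1 (6.63-fold, adjusted p = 0.00812), Pcna (3.65-fold, adjusted p = 0.0223), Pola1 (3.37-fold, adjusted p = 0.00786), Lig1 (2.65-fold, adjusted p = 0.0214), Pold2 (2.53-fold, adjusted p = 0.0162) and Chtf18 (2.27-fold, adjusted p = 0.0263). The size for Pola2 depends on the offset, with 4.67 at an offset of 1 and 2.54 at 64. Prim2 (2.36 ± 0.56, adjusted p = 0.0515), Pold1 (1.03 ± 0.28, adjusted p = 0.0758) and Prim1 (1.11 ± 0.32, adjusted p = 0.0890) did not pass. For all 10, both E2F1 arrays lay above both control arrays, as did 21% of all probe sets. When 1 array was left out, the number of calls over all probe sets moved, as did that of the 10 genes. Of the 10 genes, 3 passed without the second E2F1 array with LY294002, which has the 3' minus 5' difference of 0.899, and 3 passed with that difference as a covariate. It was also 3 without the first control array with LY294002, 4 without the second or without either deprived E2F1 array, and 0 when limma was run on just the 2 groups with LY294002.

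In deprivation medium, 7 of the 10 genes rose with E2F1 and 0 fell, against 2.19% of all probe sets called higher and 0.681% called lower, on 2 arrays against 1. They are Prim2 (3.33 ± 0.68, adjusted p = 0.0472), Pcna (3.99-fold, adjusted p = 0.0430), Pola1 (3.96-fold, adjusted p = 0.0211), Fen1 (3.57-fold, adjusted p = 0.0486), Pola2 (3.17-fold, adjusted p = 0.0468), Chtf18 (3.16-fold, adjusted p = 0.0288) and Pold2 (2.50-fold, adjusted p = 0.0367). Lig1 (0.93 ± 0.29, adjusted p = 0.125), Prim1 (0.44 ± 0.39, adjusted p = 0.573) and Pold1 (0.31 ± 0.34, adjusted p = 0.659) did not pass. All 10 were higher on both E2F1 arrays than on the control array, as were 31.8% of all probe sets. The log2 change of Chtf18 was 1.165 with an offset of 64, against 1.658 in the main setting. With 1 control array, its spread has to be taken from the other groups. Calls over all probe sets moved too when 1 array was left out, so the counts below are not particular to the 10 genes. Leaving out either deprived E2F1 array left 0 of the 10 genes called, and leaving out any other array but the deprived control left 3 to 5. With the 3' minus 5' difference as a covariate, 5 passed.

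Whether the E2F1 effect itself differed between media was tested directly. With LY294002 minus in serum, limma called 0 of the 10 genes and 0% of all probe sets, and 1 of the 10 had an unadjusted p under 0.05, as did 6.29% of all probe sets. That gene is Pola2, whose E2F1 effect was larger with LY294002 by 1.89 ± 0.39 on the log2 scale (adjusted p = 0.568, unadjusted p = 0.00137). The 2 control signals with LY294002 at the offset enter this value, which was 2.61 with an offset of 1 and 1.10 with one of 64. In deprivation minus in serum, 0 of the 10 were called and 0 had an unadjusted p under 0.05, against 9.72% of all probe sets. The 95% intervals of these differences reached from -1.18 to 2.79 with LY294002 and from -1.59 to 3.69 in deprivation over the 10 genes together. The upper limits are those of Pola2 with LY294002 and of Prim2 in deprivation, and these arrays do not exclude sizeable differences.

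**Figure D3:**
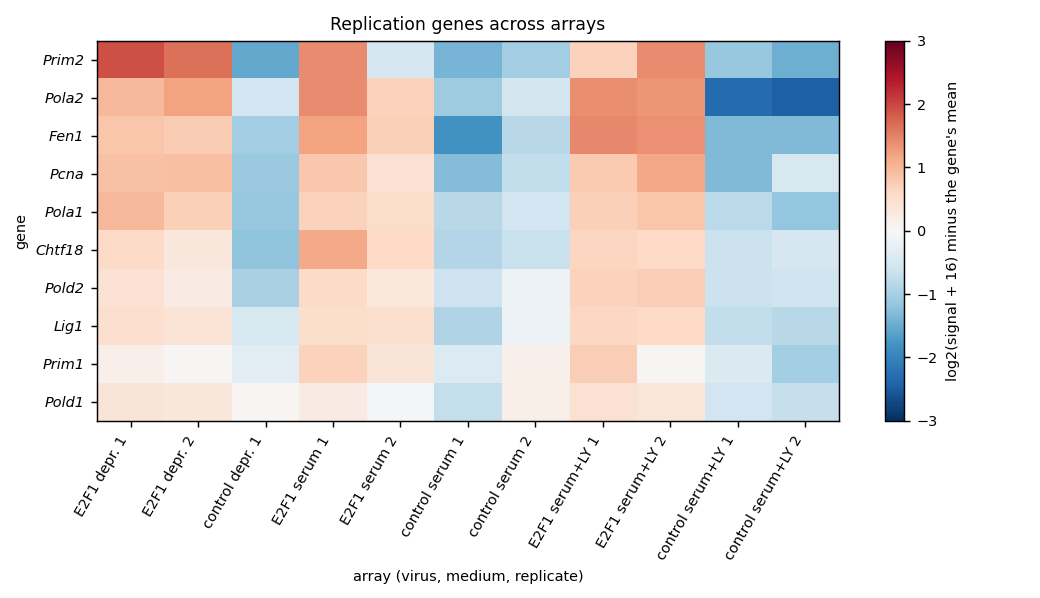
Log2(signal + 16) of each gene minus its mean over the 11 arrays, with genes in rows and arrays in columns, E2F1 arrays left of control arrays in each medium. Red is above and blue below the gene's mean. The darkest blue cells are Pola2 on the 2 control arrays with LY294002, and the rows of Prim1 and Pold1 are the palest.

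The medium alone gave no called change in these genes. In E2F1 cells, LY294002 against none gave 0 calls by limma among the 10 genes and 0% of all probe sets, and 0 of the 10 had an unadjusted p under 0.05, against 11.1% of all probe sets. The log2 changes ran from -0.26 to 0.60, with a median of 0.29. In control cells LY294002 against none also gave 0 calls, and 0% of all probe sets were called. Pola2 was the only one of the 10 with an unadjusted p under 0.05 there, against 6.62% of all probe sets, with signals of 16.1 and 13.1 with LY294002 and 59.9 and 92.4 without (log2 change -1.57 ± 0.28, adjusted p = 0.455). The size of this value depends on the offset, and it was -2.28 with an offset of 1 and -0.83 with one of 64. The other 9 genes lay between -0.60 and 0.22.

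The same held for deprivation. In E2F1 cells, deprivation against serum gave 0 calls by limma among the 10, against 0.233% of all probe sets, and the median log2 change was 0.00. Prim2 was the 1 gene with an unadjusted p under 0.05, against 19.6% of all probe sets, with 376 and 308 in deprivation and 257 and 56.1 in serum (1.34 ± 0.56, adjusted p = 0.241). The second serum array decides much of this value, which was 0.38 without it and 2.30 without the first. In control cells, deprivation against serum gave 0 calls, against 0.24% of all probe sets, with a median of -0.15. Pold2 was the 1 gene with an unadjusted p under 0.05, against 14% of all probe sets, with 235 in deprivation and 303 and 419 in serum (-0.57 ± 0.24, adjusted p = 0.349). It was -0.35 without the second control array in serum and -0.80 without the first. These comparisons share arrays with those of E2F1 against control virus. The 3' minus 5' difference was 0.510 to 0.760 on the deprived arrays and 0.122 to 0.189 on the arrays in serum without LY294002. Medium and RNA quality thus cannot be told apart in these comparisons. The 95% intervals over the 10 genes reached from -1.89 to 1.25 in control cells, on 1 array against 2, and from -1.17 to 2.63 in E2F1 cells.

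In serum without LY294002, the 2 arrays of each group differed in a shared direction over these genes. All 10 genes were higher on the second than on the first control array in serum, against 45% of all probe sets, with a median difference of 0.536 on the log2 scale, against 0.199 over all probe sets. All 10 were higher on the first than on the second E2F1 array in serum, against 55.1% of all probe sets, with a median difference of 0.327, against 0.208. The first deprived E2F1 array was the higher one for 8 of the 10 genes, against 56.2% of all probe sets. With LY294002 the first E2F1 array was higher for 6, against 55.3% of all probe sets, and the first control array for 7, against 56%. Both counts are near those shares. Fen1 differed most between the control arrays in serum, by 0.966. These are 2 arrays a group, so no test was made.

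Over the 11 arrays, the genes outside the 10 whose pattern was most like the mean of their standardised log2 values were Lmnb2 (lamin B2, Pearson r = 0.990), Lsm2 (an RNA-binding Sm-like protein, 0.987), Melk (a mitotic kinase, 0.987), Asf1b (a histone chaperone, 0.986), Nup107 (a nuclear pore protein, 0.986) and Trip13 (an ATPase of the spindle checkpoint, 0.986). For Pcna alone the closest were Exosc7 (0.992), Rfwd3 (0.983) and Mrpl28 (0.983), and for Lig1 alone Tubb4b (0.994), Asf1b (0.991) and Ccne2 (0.985). These values describe 11 arrays that fall into 2 virus groups, a difference that alone can give a high r, and 3.02% of all named genes reach an r above 0.9 with the mean pattern.

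Other replication genes (5 lists) and polymerases, ligases and partners that work outside the fork (1 list) were listed by their function. These lists were made with earlier results of these data known, so shares of all probe sets beside their counts are a description. Each gene was taken by its brightest probe set, and 33 of 51 listed genes were measured. Averaged over the media, 14 of the 33 rose with E2F1 and 0 fell, against 9.23% of all probe sets called higher and 7.25% called lower. Their median log2 change was 0.46. Of 5 measured subunits of other replicative polymerases 2 rose, Pole, the catalytic subunit of leading strand polymerase epsilon (1.18 ± 0.12), and Pold3, a polymerase delta subunit (1.14 ± 0.14). Values for Pold4 (-0.31 ± 0.18), the small polymerase delta subunit, and Pole4 (-0.23 ± 0.13) did not pass. Within polymerase delta, then, Pold2 and Pold3 passed and Pold1 and Pold4 did not. Pold1 was also above 0 (0.57 ± 0.17) and close to the threshold (limma, adjusted p = 0.0630), so the calls alone do not part it from Pold2 and Pold3.

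Of 6 clamp loader genes 4 rose. They are Rfc4 (2.23 ± 0.21), Rfc3 (1.22 ± 0.14) and Rfc2 (0.90 ± 0.14), small subunits shared by the clamp loaders, and Dscc1 (1.93 ± 0.17), which works with Chtf18 in the CTF18 loader. Chtf8, the third protein particular to that loader, stood at 0.12 ± 0.12, with signals of 967 to 1240 on E2F1 arrays and 814 to 1190 on control arrays, which overlap. Rfc1, the large subunit of the main loader, stood at 0.34 ± 0.11 (adjusted p = 0.0819). All 3 subunits of RPA, which coats single-stranded DNA, rose, namely Rpa2 (1.83 ± 0.16), Rpa1 (1.25 ± 0.12) and Rpa3 (1.17 ± 0.20).

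Of 5 other genes of Okazaki fragment processing 1 rose, Rnaseh2a, the catalytic subunit of RNase H2, which cuts RNA in RNA-DNA hybrids (1.66 ± 0.13, adjusted p = 0.000564). Its signals were 1020 to 1780 on E2F1 arrays and 351 to 489 on control arrays. Its partner subunits Rnaseh2c (0.19 ± 0.17) and Rnaseh2b (0.02 ± 0.17) did not pass, nor did Lig3, a ligase of repair and mitochondria (-0.32 ± 0.18). Of 5 fork assembly genes 2 rose, Gins3 (1.84 ± 0.22) and Gins4 (1.08 ± 0.20), both of the GINS complex of the replicative helicase. Of 9 polymerases, ligases and partners outside the fork 2 rose, Xrcc1, a scaffold of single-strand break repair (1.01 ± 0.16), and Rev3l, the catalytic subunit of the translesion polymerase zeta (0.88 ± 0.16). The base excision repair polymerase Polb (-0.07 ± 0.13) and the mitochondrial polymerase Polg (0.20 ± 0.14) did not pass. By medium, 1 of the 33 rose with E2F1 in serum (Rnaseh2a), 11 with LY294002 and 7 in deprivation, and 0 fell. Of all probe sets, 0.29%, 3.78% and 2.19% were called higher in these media, and 0.063%, 1.63% and 0.681% lower.

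**Figure D4:**
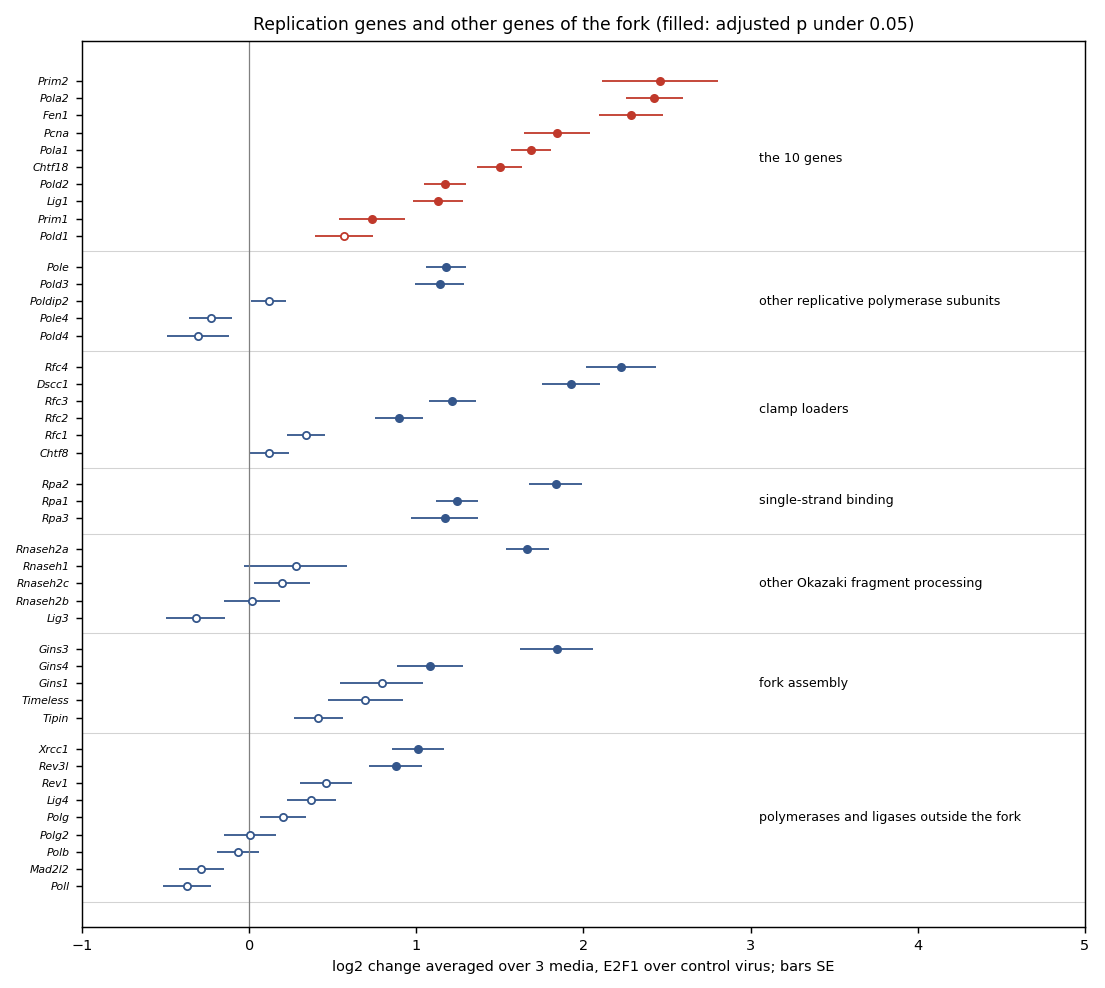
Log2 change averaged over the 3 media, E2F1 over control virus, with SE bars, for the 10 genes (red) and 33 other genes in 6 lists, 1 of them outside the fork (blue). Filled points passed an adjusted p of 0.05 and open ones did not. Of the 10 genes 9 are filled, of the others 14, and no filled point lies below 0.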

How the data were processed

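Transcript levels of REF52 cells were measured on 11 Affymetrix rat arrays, each labelled from 6 µg RNA according to the labels' protocols. What the authors deposited is 1 linear signal intensity for every probe set on every array, with a mean of 500 once 2% is trimmed at each end. MAS5 and RMA are both named, without roles or versions, per the submitters' processing notes. No detection calls were used.

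Of 15923 probe sets 57 controls were left out. Signals were taken as log2(signal + 16) without further scaling, since array medians spanned 0.25. Limma 3.58.1 in R 4.3.3 (lmFit, eBayes) fitted 1 mean for each of 6 groups to all 11 arrays, with 5 residual and 2.88 prior degrees of freedom, and p-values were adjusted by Benjamini-Hochberg over 15866 probe sets within each of 10 comparisons. Errors are standard errors. The fit was tested on simulated data. No fold is given where a compared signal is under 48, a limit chosen after seeing the data. Probe sets were named by the platform annotation where it gives 1 symbol, and all 10 genes matched a RefSeq gene (GRCr8) by ID.

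The 10 genes and all lists were chosen with earlier results of these data known. Every probe set of the 10 genes is reported. From the lists (other replicative polymerase subunits, clamp loaders, single-strand binding, other Okazaki fragment processing, fork assembly, and polymerases and ligases outside the fork) the rule names up to 4 called genes with the smallest p, and the other list members were named after their values were seen. Alternatives were other scalings, offsets, filters and variance priors, a replicate block, fits of compared groups, and leaving out arrays.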

Additional observations from a re-analysis of the deposited data

Results flagged for a closer look

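For Pola1 and Prim2 both deprived E2F1 arrays lay above both E2F1 arrays in serum, and the single deprived control array lay below both control arrays in serum. The first order held for 4 of the 10 genes and for 3662 of all 15866 probe sets. The second held for 4 of the 10 genes and for 5475 of all probe sets. How many probe sets show both was not counted. Pola1 was higher in deprivation than in serum in E2F1 cells (458 and 382 against 373 and 339, log2 change 0.225 ± 0.195) and lower in control cells (93.9 against 119.6 and 146), and the test of the difference gave 0.66 ± 0.31 (limma, adjusted p = 0.539). Prim2 had 376 and 308 in deprivation against 257 and 56.1 in serum in E2F1 cells (log2 change 1.34 ± 0.56). In control cells it had 19.3 against 23.2 and 33.7, all so close to the offset of 16 that no direction can be read there. The difference for Prim2 was 1.66 ± 0.88 (limma, adjusted p = 0.571). Without the first E2F1 array in serum the change in E2F1 cells was 2.30 and the difference 2.62, and without the second they were 0.38 and 0.70. The change of Pola1 in E2F1 cells was 0.10 without the first deprived E2F1 array and 0.35 without the second. Groups hold 1 or 2 arrays, so no array was tested for standing apart from its group. RNA quality also differed between deprived and serum arrays, as given above, and cannot be told apart from the medium.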

How the results depend on the processing

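The number of the 10 genes called in the average over media was 8 to 10 when 1 array was left out and 8 to 10 under all other settings, and the average cannot be formed without the deprived control array. In single media the counts moved more. Calls over all probe sets moved as well when 1 array was left out. Shares of all probe sets called under each setting are not given here, so a count of 0 cannot be read as a result about the 10 genes. In serum, 4 in the main setting, it was 2 with centring on array medians, 0 with an offset of 1, 0 with a replicate block, 0 with only the compared groups, 0 with both second LY294002 arrays left out and 1 with the 3' minus 5' covariate, and 0 to 4 when 1 array was left out. With LY294002, 7 in the main setting, it was 0 with only the compared groups, 0 with both second LY294002 arrays left out, 3 with the covariate and 3 to 8 when 1 array was left out. In deprivation, 7 in the main setting, it was 2 with an offset of 1, 1 with a replicate block, 0 with only the compared groups, 4 with both second LY294002 arrays left out and 0 to 5 when 1 array was left out. A fit of the compared groups alone has fewer arrays to estimate the spread, and the cause of the other moves was not tested. The counts of 0 in the 6 comparisons of media and of differences stayed 0 under every setting. The log2 changes with E2F1 kept their sign for every gene and setting except Pold1 in serum, which was -0.083 without the first control array in serum and up to 0.81 without another. For Pola2 with LY294002 the change ran from 2.54 (offset 64) to 4.67 (offset 1). Same-numbered arrays deviated together with r above 0.1 in 1 of 10 pairs of groups (-0.02 to 0.30), and the block is given above only as a setting. That 1 pair is the control and E2F1 groups with LY294002 (r = 0.301), which are compared with each other. A pairing of their arrays by number was thus not excluded, and its source was not tested. Both settings that leave out both second LY294002 arrays or use the covariate were chosen after seeing the data. With 1 probe set a gene, the mean over probe sets of a gene is the main value. No detection calls were used, so signals of Prim2 and Pola2 near the offset of 16 carry no order among themselves.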
